A study of Mus musculus with 24 samples.

Results

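The brain-derived melanoma line B16F1-GFP-DB#3 (called DB#3 here, 3 arrays) was compared with its parental line B16F1-GFP-M (called M, 3 arrays). These 6 arrays were chosen by their labels out of 24 one-colour arrays of 7 cell lines. B16F1 is a mouse melanoma line, and every melanoma line in the series carries GFP in its name. M is the parental culture. B16F1-GFP-D (D, 4 arrays) was recovered after 1 year of dormancy from syngeneic mice that had been vaccinated with irradiated, GM-CSF-producing cells. DB#1 (4 arrays), DB#2 (3 arrays) and DB#3 are dormant lines of a second generation taken from a brain site, and all the lines were then grown in culture in DMEM with 10% FBS before total RNA was extracted. DB#3 is therefore 1 line, measured in culture away from the brain, and its arrays tell about this line and not about brain-derived melanoma in general. The series also holds the myeloid lines M0 and J365, labelled p20, whose arrays enter the fit. The labels do not say whether the arrays of a line came from separate cultures. The p-values rest on the spread between arrays of the same line, pooled over all 24 arrays of the 7 lines, and this spread may be technical.

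Tumour dormancy is a state in which cancer cells persist after therapy without growing into detectable disease. Melanoma cells are known to move between a pigmented, differentiated state, driven by the transcription factor Mitf, and less differentiated states that make matrix and contractile proteins. Interferon-stimulated genes form the antiviral and antigen-display programme that cells switch on when interferon receptors, or sensors of foreign nucleic acid, signal through factors such as Stat2 and Irf9.

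Values are levels on a log2 scale, as the scanner's processed signal less the 75th percentile of its own array, so a level of 0 is a bright probe and a difference of 1 is a 2-fold change. A probe was taken as read where the scanner's software marked it well above background. The 24 arrays lay on 3 slides of 8 arrays, and each slide held 1 M and 1 DB#3 array. On the 6 arrays the 75th percentile lay between 304 and 418 intensity units and 48.7% to 52.1% of probes were read. D replicate 3 stood apart, with 89.9% of probes read against 43.6% to 53.8% on the other 23 arrays. It enters the test through the spread shared by all lines, and without it 1082 genes were called between DB#3 and M. With only the 17 melanoma arrays 916 genes were called. Per-array values are given below in the order M 1, 2, 3 and DB#3 3, 4, 5, so that values in the same place share a slide.

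All 12 melanocyte markers, among them Tyr, Tyrp1, Dct, Pmel, Mlana, Mitf and Sox10, were read on every array of both lines, and none was called. Their summed signal spanned 2379 to 2701 in M and 2400 to 2679 in DB#3, in multiples of the array's 75th percentile. Markers of other cells that a brain isolate could hold differed in how many were read. Of the 12 neuronal markers 4 were read on every array of either line (Snap25, Syp, Map2 and Tubb3), with summed signals between 12.8 and 17.1 over the 6 arrays. Of the 12 endothelial markers 10 were read on no array in either line, and 4 of the 12 microglia and blood markers in each line. Of the 10 oligodendrocyte markers 5 were read on every M array and 6 on every DB#3 array. Mbp, the only one called, fell by 1.54, while 4 of the 6 tested differences were above 0 and their median was 0.32. The oligodendrocyte markers summed to 6.45 to 14.0 in M and to 10.5 to 11.8 in DB#3. Of the 10 astrocyte markers 8, among them Gfap, Aqp4 and Gja1, were read on every array of both lines. They summed to 73.2 to 95.6 in M and to 33.9 to 39.5 in DB#3, and S100b, which melanocytes also express, fell by 1.61 (chromosome 10, below) and Slc4a4 rose by 0.91.

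Between DB#3 and M 809 of 20581 genes passed an adjusted p of 0.05 in limma, which is 3.93% of those tested. Of these, 445 were higher in DB#3 (2.16%) and 364 were lower (1.77%), and 449 differed at least 2-fold. All 809 differed in the same direction on each of the 3 slides, and the arrays of the lines did not overlap in 783 of them. The call itself favours such genes, so these counts add no separate evidence, and the shares over all tested genes are not given here. The median difference over all tested genes was 0.03. As these are cultured lines measured in bulk, fewer cells with a transcript and less of it per cell cannot be told apart.

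Among genes read on all 6 arrays, the largest rises were in Fkbp10 and Rcn3, proteins of the endoplasmic reticulum that serve collagen. Fkbp10, a prolyl isomerase that helps procollagen fold and become crosslinked, had levels of -3.15, -3.87 and -3.56 in M and 3.07, 2.87 and 3.04 in DB#3. It thus went from the dim end of the read probes to a bright one on every slide, 91.6-fold higher (log2 difference 6.52 ± 0.34 SE, adjusted p = 2.88e-10, limma). Fkbp10 rests on 1 probe. Rcn3, a calcium-binding partner of collagen synthesis, had levels of -4.02, -3.66 and -3.62 in M and 0.45, 1.25 and 1.43 in DB#3. Its 3 probes all rose, by 2.73 to 4.81. The list they belong to, collagen folding and crosslinking, had 3 of its 27 tested members higher and 1 lower, and a median difference of 0.16. This is 14.8% of the list called, against 3.93% of all genes. The lists here and below were written with earlier results of these data known, so such shares are descriptions and not independent evidence. Pcolce, which enhances procollagen processing, rose by 0.87, and Fkbp14, a relative of Fkbp10, fell by 0.84.

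Several matrix and contractile genes rose from below background. Myl9, the regulatory light chain of myosin in contractile cells, was read on no M array, at -5.02, -4.42 and -4.26, and on all DB#3 arrays, at 1.99, 1.54 and 1.97. Set against the lowest probe read on each M array, it was at least 68.6-fold higher (adjusted p = 2.62e-11). Hapln1, a link protein that ties hyaluronan to proteoglycans, was at -6.50, -6.62 and -6.51 in M and at 0.16, 0.93 and 1.04 in DB#3, at least 32.1-fold higher. Emilin1, an elastic-fibre glycoprotein, was at least 13.7-fold higher and Olfml1 at least 10.5-fold higher. Ctf1, the gp130 cytokine cardiotrophin-1, went from -6.43, -6.32 and -6.46 to -0.38, -0.59 and -0.81. Myl9, Emilin1, Olfml1 and Ctf1 rest on 1 probe each, and the 2 probes of Hapln1 rose by 7.26 and 6.68. In all, 74 of the 671 called genes with a symbol were read on every DB#3 array and on no M array, and 32 the other way round.

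Of 26 matrix and basement membrane genes tested, 3 rose (Emilin1, Col4a1 and Lamb1), none fell and the median was 0.20. These 3 are 11.5% of the list, against the 2.16% of all genes called higher. Emilin1 and Col4a1 were read on no M array, so they were tested only through DB#3, where they were high. Here and in the other lists, genes read in a single line entered through that line, so the shares depend partly on the filter. Col4a1, the main chain of basement membrane collagen, was not read in M and stood at -1.36, -1.28 and -0.90 in DB#3, at least 8.64-fold higher. Lamb1, a laminin chain, had levels of 1.12, -0.88 and -0.91 in M and 2.22, 2.13 and 2.08 in DB#3. The first M array lay well above the other M arrays for this gene, yet below every DB#3 array. Of 33 contractile and actin genes, 3 rose (Myl9, Fscn1 and Vil1), or 9.09%, and none fell, with a median of 0.14. Fscn1, fascin, which bundles actin in protrusions, went from -2.74, -2.81 and -3.04 in M to 0.35, 0.67 and 0.95 in DB#3, 11.5-fold higher (adjusted p = 5.07e-11, limma). Col4a1, Fscn1 and Vil1 rest on 1 probe each.

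**Figure D1:**
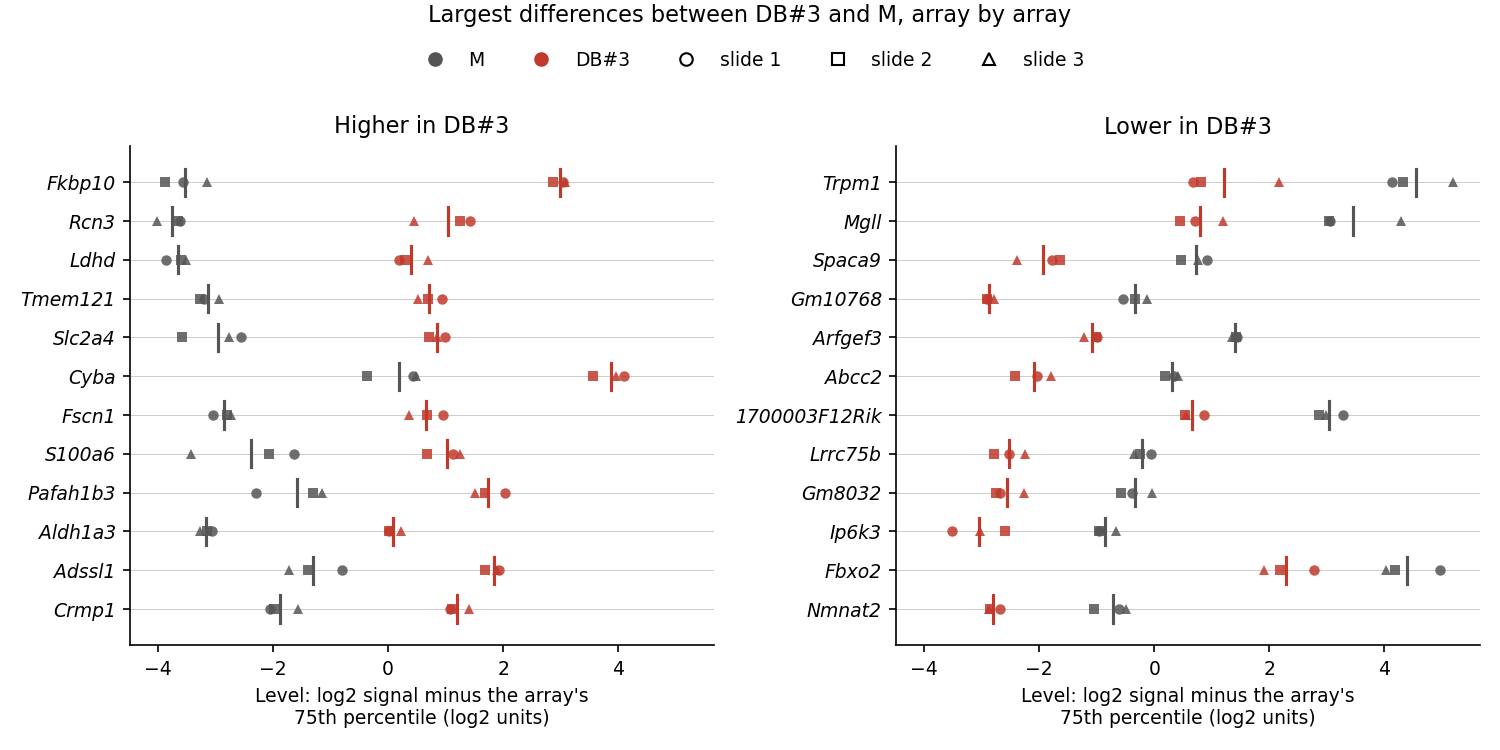
Levels of 12 rising and 12 falling genes, those that changed most among genes called and read on all 6 arrays, with 1 point per array, its shape giving the slide, and a bar at the mean of each line (log2 units relative to the array's 75th percentile). M (grey) and DB#3 (red) do not overlap for any of these genes, a condition of the choice, and the gap is widest for Fkbp10.

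Several enzymes and a transporter were among the other named rises. Ldhd, the mitochondrial dehydrogenase of D-lactate, rose from -3.52, -3.60 and -3.85 to 0.69, 0.30 and 0.20, 16.6-fold. Slc2a4, the insulin-regulated glucose transporter GLUT4, rose from -2.76, -3.58 and -2.55 to 0.85, 0.71 and 0.98, 14.0-fold. Adssl1, the muscle form of adenylosuccinate synthase in the purine nucleotide cycle, rose from -1.73, -1.39 and -0.79 to 1.89, 1.68 and 1.92, 8.79-fold (adjusted p = 3.43e-05). These genes rest on 1 probe each. The glycolysis and glucose uptake list as a whole had 3 of 31 members higher (Ldhd, Hk1 and Ldhb), or 9.68%, none lower and a median of 0.21. Of all genes 2.16% were called higher. Hk1, hexokinase 1, rose by 1.70 on its brightest probe, and its probes disagreed, since another gave 0.15. Cyba, a membrane subunit of the NADPH oxidase, rose from 0.49, -0.36 and 0.44 to 3.96, 3.56 and 4.09, with 2 probes that gave 3.68 and 3.72.

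Enzymes of aldehydes, carbonyls and glutathione changed in both directions. Of 37 tested, 7 rose and 4 fell, and the median was -0.05. This is 29.7% of the list called, against 3.93% of all genes. Gsta4, the glutathione transferase that clears 4-hydroxynonenal, rose by 4.76, from -4.18, -4.22 and -5.43, read on 1 of the M arrays, to -0.38, 0.50 and 0.33. Dhdh was read on no M array and was at least 5.92-fold higher in DB#3. Aldh1a3, which makes retinoic acid from retinal, rose from -3.27, -3.14 and -3.07 to 0.23, 0.02 and 0.02, 9.52-fold. Dhrs2 rose by 2.12, and Cbr1, Cbr3 and Mgst3 by 0.62 to 0.96. The 4 that fell were glutathione transferases, Gstt1 by 1.15, Gstt2 by 1.34, Gstt3 by 1.02 and Gsta2 by 1.03. Gstt1, Gstt2 and Gstt3 lie on chromosome 10, which is described below.

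Genes of melanoma state switching were higher in 5 of 24 cases and lower in 1, with 25% of the list called against 3.93% of all genes. Pdgfrb, a receptor of mesenchymal and mural cells, was read on no M array and was at least 3.56-fold higher in DB#3, at -2.75, -2.26 and -2.36. Ngfr, the nerve growth factor receptor of neural crest cells, was at least 1.30-fold higher on the same reckoning and rose by 1.94 in the fit. Aqp1 rose by 2.43 and Lef1 by 1.60, each read on 1 of the 3 M arrays. Snai2, a transcription factor of the melanocyte lineage, fell by 0.66. Among the 12 fibroblast and mural markers 6 were read on no DB#3 array and Pdgfrb was the only one called, and their summed signal was 1.52 to 1.81 in M and 1.17 to 1.27 in DB#3. Vwf, an endothelial marker, was called higher, with levels of -3.11, -4.69 and -4.27 in M, where it was read on 1 of the 3 arrays, and 0.05, -0.86 and -0.76 in DB#3, while Pecam1 was the only other endothelial marker read. The endothelial markers summed to 0.30 to 0.36 in M and to 0.82 to 1.27 in DB#3. The part of such cells in these values was not tested.

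Of 43 axon guidance and neuronal cytoskeleton genes tested, 5 rose and 4 fell, or 20.9% against 3.93% of all genes, with a median of 0.04. Crmp1, a mediator of semaphorin signals in growth cones, rose from -1.57, -1.99 and -2.05 to 1.41, 1.10 and 1.08, 8.41-fold. Tubb2b, a tubulin of the developing nervous system, rose from -0.71, -0.30 and -0.26 to 2.80, 2.54 and 2.36, 7.92-fold. The semaphorin Sema3d was called higher and was read on 1 of the 3 M arrays and on all DB#3 arrays. Sema3f, another semaphorin, rose by 1.73 and Dpysl3 by 0.94. The 4 that fell were the receptor genes Epha4, Plxna4 and Plxnc1 and a transmembrane semaphorin gene. Epha4 was read on all M arrays, at -1.72, -2.37 and -2.22, and on no DB#3 array, at least 4.34-fold lower. Plxna4 fell by 1.67, Plxnc1 by 0.98 (chromosome 10, below) and the semaphorin Sema6d by 1.22.

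Of 33 genes of pigment synthesis and the melanosome, 4 fell and none rose, with a median of -0.16. This is 12.1% of the list, against the 1.77% of all genes called lower. Trpm1, melastatin, a channel gene that Mitf drives, had levels of 5.20, 4.33 and 4.13 in M and 2.17, 0.81 and 0.67 in DB#3, 10.1-fold lower (adjusted p = 0.0042). Its 6 read probes fell by amounts that differed, from 1.16 to 3.34, so the size depends on the probe. Kcnj13, a potassium channel of pigment cells, fell by 3.75, from 0.13, -0.40 and -0.27 to -4.53, -3.68 and -3.59, and was read on 2 of the 3 DB#3 arrays. Cited1, a transcriptional co-activator, fell by 0.93 and Rab32, a GTPase of melanosome transport, by 0.82 (chromosome 10, below). The melanocyte markers with the largest differences were Oca2 at -0.61 (adjusted p = 0.57) and Gpr143 at -0.58 (adjusted p = 0.17), neither called.

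Among the other large falls, Mgll, the lipase that degrades monoacylglycerols and the endocannabinoid 2-AG, fell from 4.29, 3.04 and 3.05 to 1.20, 0.45 and 0.70, 6.39-fold, on both of its probes. Of 38 sterol and fatty acid genes 5 fell, Mgll, Msmo1, Cyp51, Insig1 and Stard4, and 1 rose, the regulator Srebf1, by 0.76. This is 15.8% of the list called, against 3.93% of all genes. The median of the list was -0.15. Msmo1 and Cyp51 are enzymes of cholesterol synthesis and fell by 0.86 and 0.63. Abcc2, an export pump for glutathione conjugates, fell from 0.42, 0.18 and 0.35 to -1.80, -2.43 and -2.04, 5.29-fold. Spaca9, Gm10768, 1700003F12Rik, Gm8032, Ip6k3, Fbxo2 and Nmnat2 fell by 2.08 to 2.65. Hpse, heparanase, which cuts heparan sulfate in the matrix, fell by 2.01. In the same list Sulf2, which trims sulfate from heparan sulfate, rose by 2.10 and Ctsk, a collagen-degrading cathepsin, by 2.81, and the other 27 of 30 members were not called. This is 10% of that list called, against 3.93% of all genes.

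Of 36 dormancy regulators and genes of TGF-beta signalling, 2 rose and 3 fell, with a median of 0.00. This is 13.9% of the list called, against 3.93% of all genes. Lifr, the receptor of leukaemia inhibitory factor, was read on no M array and was at least 2.47-fold higher in DB#3. Tyro3, a receptor kinase of Gas6 and protein S, rose by 1.02 on its brightest probe. Tgfb1 fell by 1.39, the retinoic acid receptor gene Rarb by 0.80 and the cell cycle inhibitor gene Cdkn2c by 0.67. In the cell cycle and replication list 1 of 50 members was called (2%), Mybl2, which rose by 0.66. The differences of 41 of these 50 genes were above 0 and the median was 0.17. Of 34 amino acid stress genes 1 was called (2.94%), Ddit4, which lies on chromosome 10 (below) and fell by 1.40. Neither share was above the 3.93% of all genes, so neither list stood out by its calls. A further list held 11 genes for proteins shared by the melanoma and leukaemia dormancy models. None of the 11 was called by limma, and 1 had an unadjusted p under 0.05, which was Capg. Capg differed by 0.80 (adjusted p = 0.076), and Septin9 stood at 4.42, 4.32 and 4.60 in M and 4.38, 4.45 and 4.78 in DB#3. The study measured these proteins by mass spectrometry in D and in a dormant leukaemia line, each against its parental cells. The arrays measure RNA, and DB#3 is another line, so those protein changes were not tested here.

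**Figure D2:**
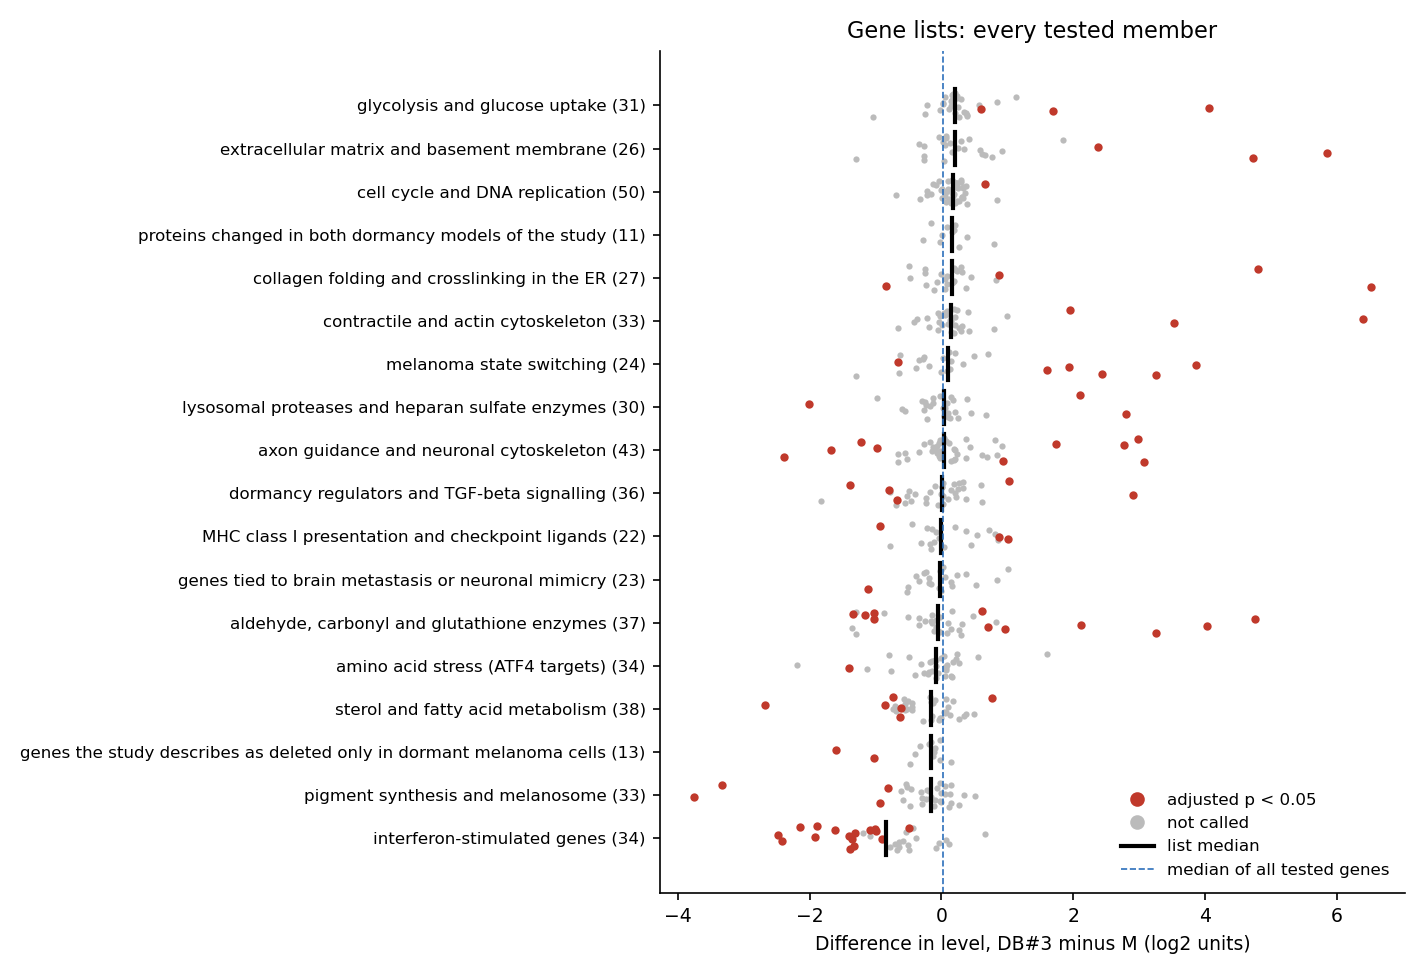
Difference between DB#3 and M (log2 units) for every tested member of 18 gene lists, with called members in red, others in grey, the list median as a black bar and the median of all genes as a dashed line. The number tested stands in brackets. The interferon list has a median of -0.84, while the other 17 medians lie between -0.16 and 0.21.

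Interferon-stimulated genes fell as a group. Of 34 tested, 16 were lower in DB#3, none was higher, 31 of the differences were below 0 and the median was -0.84. This is 47.1% of the list called, against the 1.77% of all genes called lower. Oas2, an antiviral enzyme that makes 2-5A, was read on all M arrays, at -2.91, -2.61 and -2.75, and on no DB#3 array, at least 2.89-fold lower. Igtp, an immunity-related GTPase, was at -2.28, -1.76 and -1.57 in M and likewise not read in DB#3, at least 5.14-fold lower. Usp18, the negative regulator of the interferon receptor, fell by 2.14 from -1.90, -1.67 and -1.58 to -3.76, -3.56 and -4.25, and was read on 2 of the 3 DB#3 arrays. Irgm2, a second GTPase of this family, fell by 1.91.

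The fall reached the transcription factors of the pathway. Irf7 fell by 1.36, Stat2 by 1.01 and Irf9 by 0.90, and in each case the arrays of the lines did not overlap. Stat2, for example, had levels of 0.48, 0.83 and 1.20 in M and -0.60, -0.08 and 0.15 in DB#3, and lies on chromosome 10 (below). The sensor gene Ddx58, which encodes RIG-I, fell by 1.39 and Rsad2, viperin, by 1.00. Ifi27, the brightest of the 16, had levels of 5.10, 5.28 and 5.72 in M and 3.79, 4.05 and 4.25 in DB#3. Some well-known members did not pass the test. Isg15 differed by -1.09 (adjusted p = 0.17), Ifit1 by 0.11 and Irf1 by 0.07. In the list of MHC class I presentation and checkpoint ligands 2 of 22 genes rose, H2-K1 by 1.01 and H2-Q7 by 0.88. The peptide-loading chaperone gene Tapbp was the 1 that fell, by 0.93 on 1 probe and 0.08 on another. These calls are 13.6% of that list, against 3.93% of all genes, and none was a checkpoint ligand. H2 genes share sequence with close relatives, so the signals of single members are uncertain.

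Promoters of this group were searched on either strand for the letters GAAA, any 2 bases, and GAAA again, the core that interferon-activated factors bind, in the RefSeq windows of build GRCm38.p6 (250 bases before to 50 after each start). This motif was chosen after the values were seen. Of the 16 genes 10 had a promoter in the table, and 6 of these 10 held the motif, against 3.53% of all 10338 tested genes that had one and 3.44% of all windows. In the whole interferon list, called or not, 19 of 31 genes with a promoter held it, or 61.3%, so its share was as high in the list as a whole as in the members that fell. In the 227 other genes called lower the share was 5.29%, and in the 288 called higher 2.78%. Stretches of 30 bases from the 6 promoters follow, read on the strand of the gene from 5′ to 3′, with the motif or its reverse complement in capitals.
Oas1a, chr5:120907526-120907555, minus strand: cccttctcggGAAATGGAAACTGAAAatct
Igtp, chr11:58199512-58199541, plus strand: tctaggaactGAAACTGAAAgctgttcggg
Irgm2, chr11:58214903-58214932, plus strand: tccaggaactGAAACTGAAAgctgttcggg
Stat2, chr10:128270266-128270295, plus strand: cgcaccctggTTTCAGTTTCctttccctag
Rsad2, chr12:26456553-26456582, minus strand: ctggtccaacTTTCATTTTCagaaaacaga
Ddx58, chr4:40239804-40239833, minus strand: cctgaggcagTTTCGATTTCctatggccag
Oas1a holds 2 overlapping copies, at 20 bases before its start, and Igtp and Irgm2 are near copies of each other around the motif. No match in Irf7, Irf9, Xaf1 and Trim25 says only that these letters are not in their windows.

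For the pigment genes, the E-box letters CATGTG or CACGTG, which Mitf binds, stood in the windows of 15 of 26 genes with a promoter, or 57.7%, against 20.9% of all tested genes. The share was 21.5% among the genes called higher in DB#3 and 27.4% among those called lower.

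DB#3 was also set directly against each of the other dormant lines, contrasts that all use the same DB#3 arrays. Against D, 101 of 20033 genes were called (0.504%), of which 71 were higher in DB#3 (0.354%) and 30 lower (0.15%). Against DB#1, 59 of 20556 were called (0.287%), 13 higher (0.0632%) and 46 lower (0.224%). Against DB#2, also taken from the brain site, 1560 of 20978 were called (7.44%), 750 higher (3.58%) and 810 lower (3.86%). These counts depend on scaling, and with unscaled signals 28.4% rather than 70.3% of the calls against D, and 11.4% rather than 48.1% of those against DB#2, were higher in DB#3. Against D the share higher was 87.4% with quantile normalization, 83.0% with normexp and 54.5% with the percentile taken over detected probes. Without scaling the median of all genes moved to -0.20 against D and -0.26 against DB#2.

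Interferon-stimulated genes in DB#3 were called below those of DB#2 in 28 of 35 cases, with a median of -1.85, and none was called higher. This is 80% of the list, against the 3.86% of all genes called lower in that contrast. Igtp, not read in DB#3, was at least 17.7-fold lower in DB#3 than in DB#2, and Irf7 was 3.17 lower. Against DB#1, 3 of 33 were lower, or 9.09% against 0.224% of all genes. These were Irf7 by 1.18, Usp18 by 1.23 and Rtp4 by 1.22 (adjusted p = 0.024, 0.042 and 0.025, limma). The median of the list was -0.24. Against D, 1 of 31 was lower, or 3.23% against 0.15% of all genes. This was Rtp4, by 1.10 (adjusted p = 0.036, limma), and the median of the list was -0.08.

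**Figure D3:**
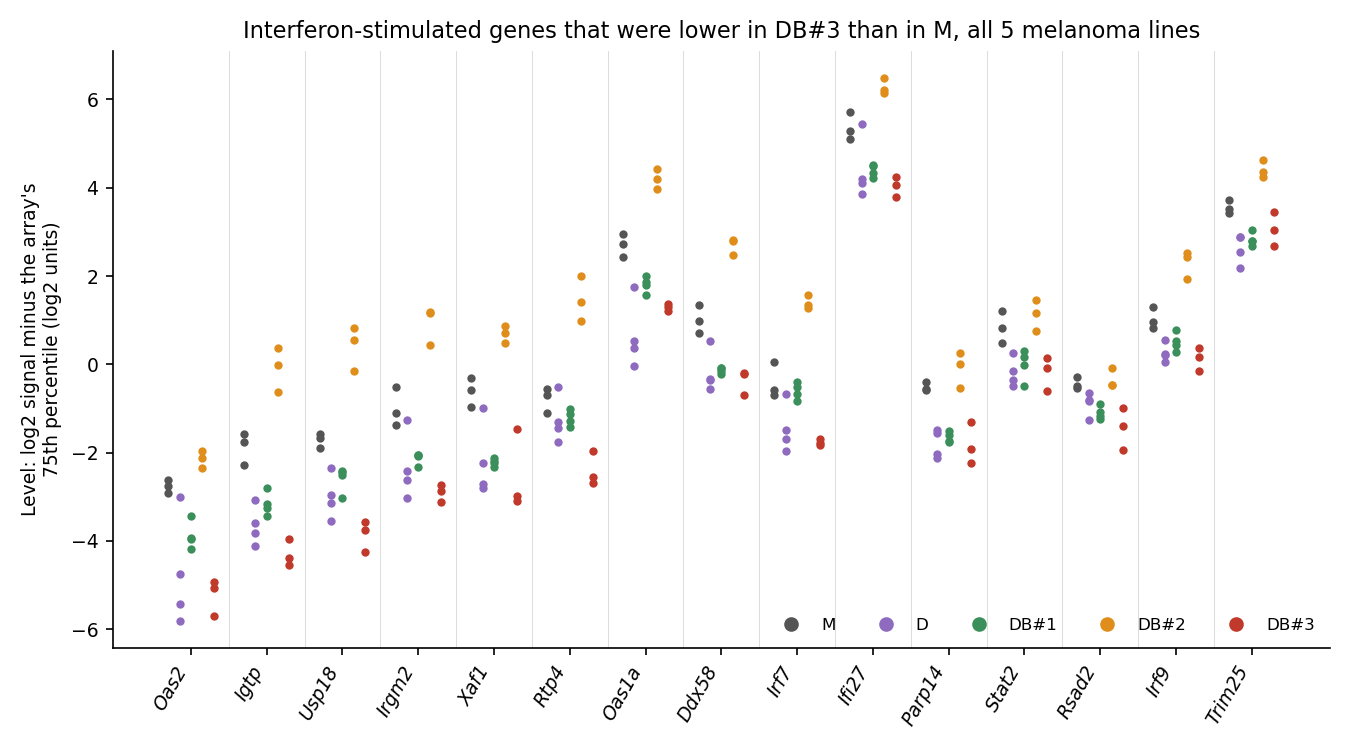
Levels of interferon-stimulated genes that were lower in DB#3 than in M (15 of the 16 are drawn), with 1 point per array in each of the 5 melanoma lines (log2 units relative to the array's 75th percentile). DB#3 (red) lies below M (grey), with the exception of 1 DB#3 array that overlaps M for Trim25, and below DB#2 (orange), which has the highest mean level for each of these genes.

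Other genes separated DB#3 from single lines. All rankings in this paragraph are among called genes with a symbol, read on all arrays of both lines and with no overlap between them. Rangrf, not read in DB#3, fell by more against each line and is given further on. Against D the largest rises among genes read on all arrays were Mocos, which activates xanthine and aldehyde oxidases, by 3.00 ± 0.39 (SE), Ctsk by 2.55, the transcription factor Batf by 2.04 and the phospholipase Pla2g5 by 2.02. Batf was also 2.60 above M. The largest falls were Flywch2 by 2.08, Plxna4 by 1.75, Tmem88 by 1.69 and Abcc2 by 1.48. Against DB#1 the largest falls were Clu, the extracellular chaperone clusterin, by 4.61, and Mbp, a myelin protein gene, by 3.77, with Flywch2 by 2.27 and Sigirr by 2.26. Against M the difference of Clu was 0.63 (adjusted p = 0.52). The largest rises were Ctsk by 3.14, Gngt2 by 1.33, Abi3 by 1.04 and Chst10 by 0.92. Against DB#2 the largest rises were Tubb2b by 4.83, Fkbp10 by 4.14, H2-DMb1 by 3.89 and Lrrc4b by 3.80, and the largest falls were Rtp4 by 3.88, Irgm2 by 3.83, Abcc2 by 3.62 and Flywch2 by 3.48. A fit restricted to the 7 arrays of DB#3 and D called 4 genes.

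A set of 11 genes differed in the same direction from M and from each of D, DB#1 and DB#2. Of these 4 were higher and 7 lower in DB#3. Rangrf, which takes part in nuclear import and in placing a cardiac sodium channel, was read on every array of the other 4 lines, at 0.21 to 1.07, and on no DB#3 array, at -4.96, -5.15 and -4.22. Against M it was at least 26.9-fold lower, and its 3 probes fell by 3.58 to 5.24. Tvp23a, a Golgi membrane protein gene, was at -0.82, -1.35 and -1.44 in M and at -6.45, -6.58 and -6.25 in DB#3, at least 8.50-fold lower on its brightest probe, while its other probe gave -0.80. The transcript named BC087921 in the array's annotation was likewise read on all arrays of the other lines and on none of DB#3, at least 9.66-fold lower than in M. Plxna4 lay at -2.33, -2.66 and -3.56 in DB#3 against -1.49 to 0.63 on all arrays of the other lines. Flywch2, Rtp4 and the transcript AK037107 made up the remaining falls.

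The 4 rises were Ctsk, Dlc1, Gm28321 and the transcript AK045458. Ctsk stood at -0.19, -0.46 and -0.32 in DB#3, at -2.95, -3.35 and -3.09 in M and at -3.91 to -3.33 in DB#1, with DB#2 closest, at -2.22 to -1.73. Dlc1, named for its deletion in liver cancer, stood at 0.99, 1.06 and 1.21 in DB#3, just above the -0.44 to 0.79 of the other lines. Against D and DB#1 it differed by 0.56 and 0.62. Gm28321 stood at -1.68, -1.44 and -1.41 in DB#3, the only line where every array read it. It was read on 2 M, 1 D, 2 DB#1 and 1 DB#2 arrays. It was thus tested only through DB#3, where it was high, and the size of its rise is uncertain.

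**Figure D4:**
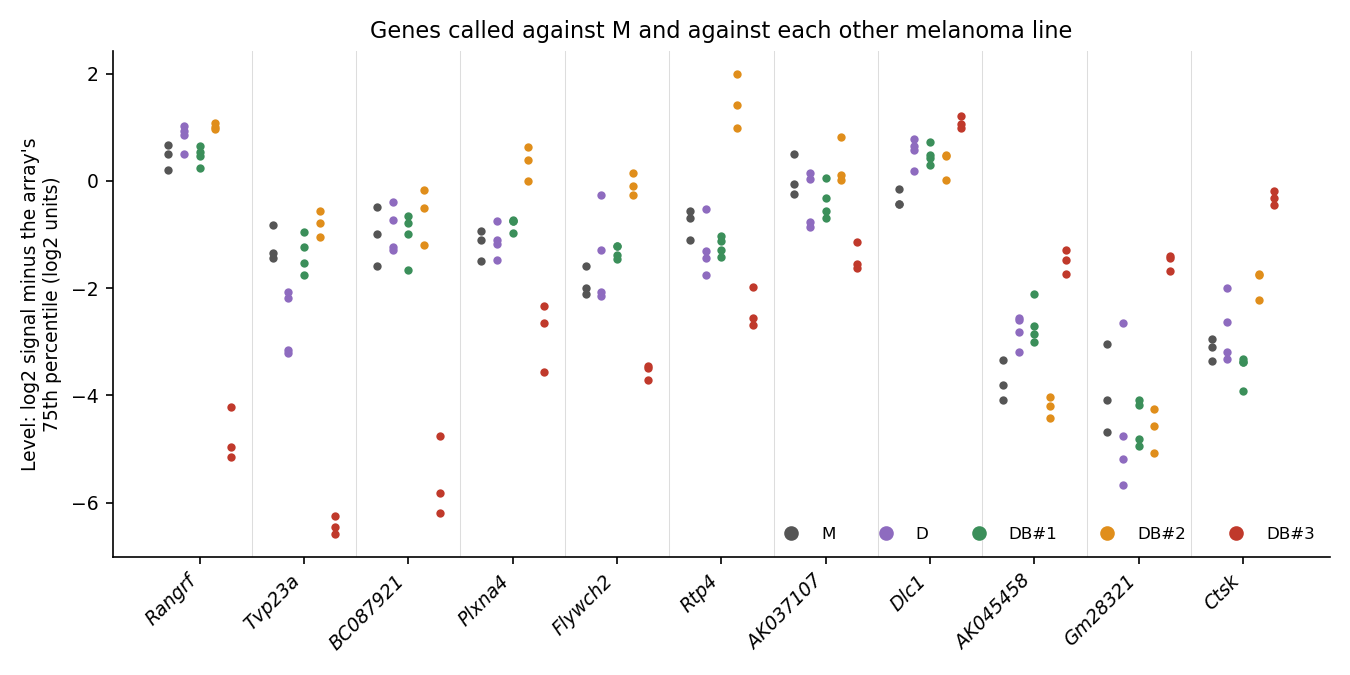
Levels of the 11 genes that were called in DB#3 against M and, in the same direction, against each other melanoma line, with 1 point per array (log2 units relative to the array's 75th percentile). DB#3 (red) lies below all other arrays for Rangrf, Tvp23a, BC087921, Plxna4, Flywch2, Rtp4 and AK037107, and above them for Dlc1, AK045458, Gm28321 and Ctsk.

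By chromosome, 1 stood apart. The 626 tested genes of chromosome 10 with a symbol had a median difference of -0.24 between DB#3 and M, while the medians of the other 19 chromosomes lay between 0.02 and 0.09. On the 3 slides the chromosome 10 median was -0.26, -0.21 and -0.26. Of its genes 80.4% had a difference below 0, against 40.1% of the 12294 genes elsewhere. Chromosome 10 held 64 of the 289 genes with a symbol called lower, or 22.1%, although it held 4.85% of the genes tested, and 7 genes called higher.

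The shift ran along the whole chromosome. When its tested genes were put in chromosomal order and cut into 8 stretches of 78 or 79 genes, the median was between -0.30 and -0.18 in every stretch, and each stretch held 3 to 14 genes called lower. On the other chromosomes, runs of 25 neighbouring genes reached medians between -0.20 and 0.31, and on chromosome 10 the lowest run reached -0.47, from Mcm9 to Slc29a3. Most of the 64 called genes fell by little: 46 by less than 2-fold, with a median of -0.77. Those that fell most included Perp, a p53 target of cell adhesion, which was read on no DB#3 array and was at least 1.89-fold lower, Gli1, the hedgehog effector, by 2.56 (read on 2 of the 3 DB#3 arrays), and Arfgef3 by 2.48. Lrrc75b fell by 2.30 and the calcium-binding protein gene S100b by 1.61, from 5.46, 5.43 and 5.86 to 3.87, 3.92 and 4.14. The 7 higher were H60b, Arhgap45, Aig1, Akap12, Hk1, Reep6 and Slc35f1.

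The same quantity was taken array by array, as the median of chromosome 10 genes less that of all other genes, each gene centred on the mean of the 5 melanoma lines. It was -0.14, -0.15 and -0.14 in DB#3 and 0.18, 0.18 and 0.19 in M. D lay at -0.15 to -0.12 and DB#1 at -0.16 to -0.14, next to DB#3, and DB#2 at 0.21 to 0.27, next to M. In the direct contrasts the chromosome 10 median was 0.08 against D, 0.02 against DB#1 and -0.36 against DB#2. In the contrast with DB#2, 141 of 641 tested chromosome 10 genes were called lower in DB#3, against 3.86% of all genes. A list of 13 genes with a reported deletion in dormant melanoma has 12 members on chromosome 10. The study describes these deletions in its comparison of D with M, not for DB#3. It reports that copy-number patterns of dormant and parental cells were alike at the level of chromosome arms. The list was drawn up on lines of this series and is not independent evidence of a direction. In DB#3 against M 2 of the 13 were called, S100b and Gstt3, both lower, 12 of the 13 differences were below 0 and their median was -0.15. This is 15.4% of that list called, against 11.3% of the tested chromosome 10 genes and 3.93% of all genes. Array expression does not measure the number of DNA copies.

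**Figure D5:**
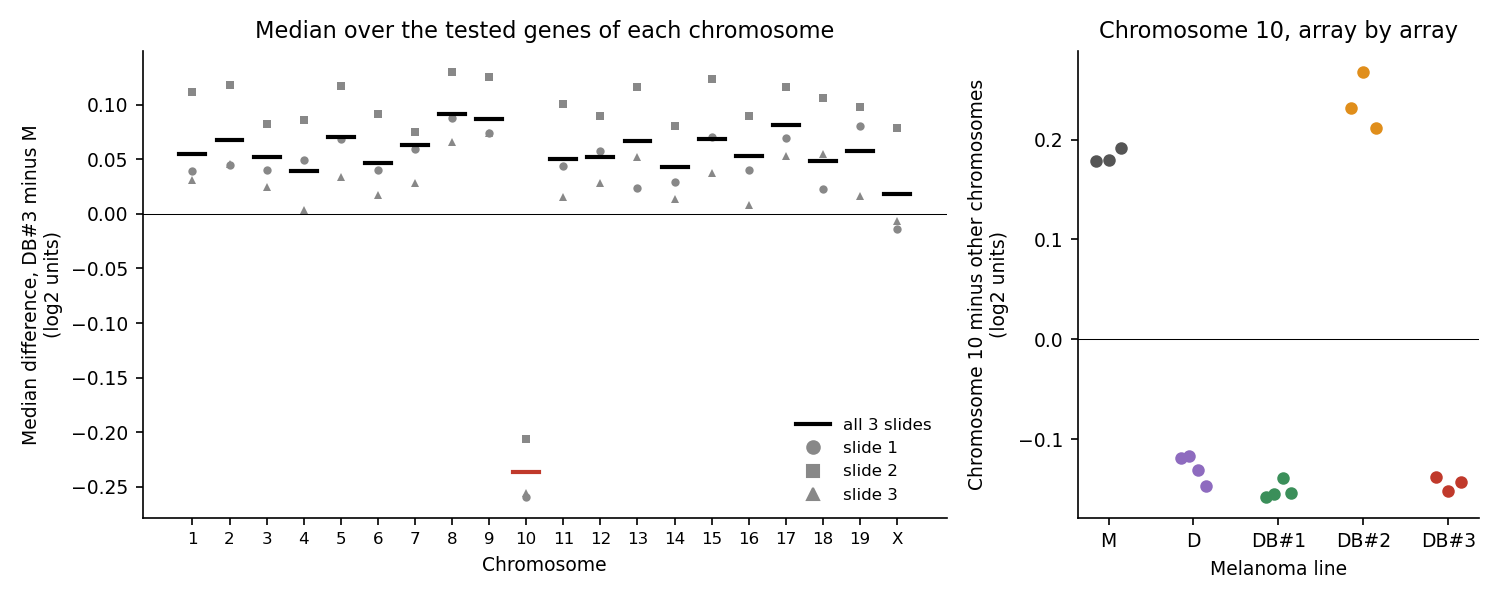
Left, median difference between DB#3 and M over the tested genes of each chromosome (bars, log2 units) with the median within each slide as points. Right, chromosome 10 genes less all other genes, 1 point per array of each melanoma line (log2 units). Chromosome 10 has a median of -0.24 and the other chromosomes 0.02 to 0.09, and DB#3, D and DB#1 lie below 0 while M and DB#2 lie above it.

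Of the 32 called genes read on every M array and on no DB#3 array, 9 were X-linked, while the X chromosome held 3.17% of the tested genes with a symbol. These 9, grouped after their values were seen, were Gm1993, Gm5168, Gm2030, Slx, Gm10487, Gm14625, Gm16404, 3830403N18Rik and Nrk. The first 5 of these were neighbours among the 409 tested X genes, at places 65 to 69, and the next 3 lay at places 122 to 124. Slx is a multicopy gene of male germ cells, and probes to such copies may not tell them apart, so the values of these 8 genes are uncertain and may share signal. Gm2030 stood at -0.27, -0.50 and -0.37 in M and at -4.62, -4.81 and -4.34 in DB#3, with no overlap. Its mean was -4.66 in DB#1, -2.43 in D and -0.71 in DB#2. Nrk, a kinase gene elsewhere on the X chromosome, was at least 11.5-fold lower in DB#3 than in M. Away from the X chromosome Hspb8, a small heat shock protein, was at least 9.20-fold lower.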

How the data were processed

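Total RNA was hybridised in 1 colour (Cy3) to Agilent whole mouse 8 x 60k arrays. The authors deposited 1 scanner file per array from Agilent Feature Extraction 10.7.3.1, per the labels and file headers, with processed intensity, median and background intensity, and flags per spot. A series table of intensity values, also deposited, held the same numbers in 1511424 of 1511424 values compared and was not used further. The study names GeneSpring for statistics and no test for these arrays. No spot was saturated.

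Outlier-flagged spots were left out per array, spots of 1 probe were averaged, and log2 of the deposited processed intensity less the array's 75th percentile was used. Probes were named through RefSeq accessions (32917 of 56488 probes, GRCm38.p6 gene table), with the file's name kept otherwise. The brightest probe on average stood for a gene. Genes read on every array of at least 1 line compared were tested with limma 3.58.1 (R 4.3.3) on all 24 arrays, with line and slide as terms (15 residual degrees of freedom), and Benjamini-Hochberg adjustment. The fit was tested on simulated data. Fold bounds set the bright line's mean against the dim line's, each dim array at the higher of its own value and its lowest read probe.

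Named genes were the 12 largest rises and falls among called genes read on all 6 arrays without overlap and with 1 direction on the 3 slides, up to 5 per direction with the largest bound, up to 4 called members of each of 25 lists (18 of processes, 7 of markers), 4 per direction in each direct contrast, and Adssl1, Septin9 and Capg. Exceptions, such as the other called list members, Batf and Clu against M, the chromosome 10 and X-linked genes, were named after their values were seen. The members and lists were chosen with earlier results of these data known. Of 695 list genes 687 had a probe by that name. The number of arrays limits precision. Some list members are not reported here by name.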

Additional observations from a re-analysis of the deposited data

Results flagged for a closer look

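The 11 genes called in DB#3 against M and, in the same direction, against each of D, DB#1 and DB#2 stood out because the change from M differed between DB#3 and every other melanoma line by the direct limma contrast. Relative to DB#1, the difference was -5.25 for Rangrf, -5.06 for Tvp23a and -4.48 for BC087921. None of these 3 was read on any DB#3 array, and as bounds they were at least 27.2-fold, 7.56-fold and 9.61-fold lower than in DB#1. It was -2.27 for Flywch2, -2.03 for Plxna4, -1.22 for Rtp4 and -1.12 for AK037107. It was 3.14 for Ctsk, 3.02 for Gm28321, 1.18 for AK045458 and 0.62 for Dlc1. Of these rises, Gm28321 was read on every array of DB#3 alone, so it entered the tests only through that line. Leaving out 1 replicate at a time gave 6 to 11 genes called in all these contrasts, the fewest without DB#3 replicate 5.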

How the results depend on the processing

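No named gene's difference from M reversed under the alternatives run, and of the gene lists only the interferon list was run under them. Between DB#3 and M, calls numbered 809, and 3023 with only the 6 arrays, which leave 2 residual degrees of freedom, 520 without the filter on dim genes, 470 at an adjusted p of 0.01, 449 with at least 2-fold as well, and 494 to 612 without 1 replicate of either line. Against D, 101 became 4 with only the arrays of both lines, 67 unscaled, 59 without the filter, 60 with genes read throughout both lines, 52 at 0.01, and 32 (without DB#3 replicate 5) to 267 (without D replicate 1) in turn. Against DB#1, 59 became 37 without the filter, 30 with genes read in both, 38 at 0.01, and 35 to 61 without 1 replicate. Against DB#2, 1560 became 931 without slide, 930 with only those arrays, 2378 unscaled, 856 without the filter, 803 at 0.01, 651 with 2-fold, and 865 to 1422 without 1 replicate. The 11 genes particular to DB#3 became 2 when each fit held just the pair of lines compared, 7 with quantile normalization, 6 with genes read in both lines, and 6 (without DB#3 replicate 5) to 11 without 1 replicate. The 16 lower interferon genes became 26 with only the 6 arrays, 10 with the median of a gene's probes, and 13 to 16 without 1 replicate. The chromosome 10 median less that of all genes, -0.27, was -0.23 with normexp (run on median signals) and -0.29 to -0.23 without 1 replicate. The causes were not tested.

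Replicate numbers pair few of these arrays, since DB#3 shares only number 3 with M. Arrays of DB#3 and another melanoma line with the same number correlated in their deviations at -0.65 to 0.55 (6 pairs, mean 0.02). Those on the same slide with another number correlated at 0.12 to 0.85 (13 pairs, mean 0.51), a range that overlaps the first. For DB#3 and M arrays on the same slide the range was 0.64 to 0.83 (3 pairs). With a replicate block in place of slide the calls were 415, 56, 36 and 568 against M, D, DB#1 and DB#2, with 7 particular genes and 10 lower interferon genes. Of the 96 named genes 22 lost their call under it, and 1 to 14 under each other setting that took any away. H2-Q7 lost its call under 12 settings, Rarb and Tgfb1 under 11, and Pcolce under 10.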
